A study of Mus musculus with 6 samples.

Results

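The genes described here encode the structural and regulatory subunits of the proteasome: 39 of the 29721 genes listed, chosen by their mouse symbols. They are Psma1 to Psma8, Psmb1 to Psmb4, Psmc1 to Psmc6, the Psmd genes, Psme3, Psme4, Psmf1 and Psmg1 to Psmg4. The catalytic beta subunits and the immunoproteasome genes lie outside this choice. So do Adrm1 and Sem1, which encode further subunits of the 19S cap under other symbols. All 39 passed the filter on low counts and were among the 17652 genes tested. By role they fall into 12 genes of the 20S core (8 of the alpha ring, 4 of the beta ring), 17 of the 19S cap (6 ATPases, 3 other subunits of the base, 8 of the lid), 7 assembly factors (4 for the 20S core, 3 for the 19S base) and 3 activators or inhibitors.

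Transcripts were measured by stranded mRNA sequencing in pancreas taken at an age of 3 months from 6 Ela-myc mice. Of these, 3 were wild type for Parp2 and 3 were PARP2 knockouts, with 1 animal per library. All 6 animals carry the Ela-myc transgene, in which the elastase promoter, active in the enzyme-secreting acinar cells, drives Myc. The series asks what PARP2, a nuclear enzyme that adds ADP-ribose at DNA breaks, does in the growth of pancreatic tumours. The labels call the tissue pancreas, the protocol speaks of tumours, and the authors' name for the deposited counts calls the samples preneoplastic. No label records how much normal or tumour tissue a sample held.

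The proteasome is the protease that degrades most ubiquitin-tagged proteins of the cell. Its barrel, the 20S core, is built from outer alpha rings that gate entry and inner beta rings that hold the active sites. The 19S cap binds the barrel ends: its lid and base receptors take up tagged substrates and remove ubiquitin, and its ring of ATPases unfolds the chain and threads it inside. Dedicated chaperones that are not part of the finished particle guide the alpha ring and the ATPase ring together. Acinar cells make more secretory protein than most cells, and Myc-driven growth also raises protein synthesis.

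Library totals lay between 28105021 and 32055565 counts. Parp2 itself (ENSMUSG00000036023, chromosome 14, 50807841 to 50821301, GRCm38) stood at 40.5, 36.4 and 37.5 CPM (counts scaled to library size) in wild-type libraries 1 to 3 and at 14.4, 12.4 and 13.6 CPM in knockout libraries 1 to 3, a log2 fold change of -1.50 (SE 0.0970, adjusted p = 0.00201), so reads still mapped to it in the knockout. Myc measured 256, 266 and 391 CPM in wild-type libraries and 83.4, 177 and 51.4 in knockouts, a log2 fold change of -1.55 (SE 0.476, adjusted p = 0.0366), a call that ended with library totals, the acinar covariate, no count filter, and without any 1 library other than knockout library 2 (adjusted p up to 0.12). The libraries differed in the levels of transcripts that mark cell types. The share of raw counts in 19 acinar marker genes was 23.3%, 25.0% and 19.9% for wild-type libraries 1 to 3, and 3.52%, 12.3% and 0.0160% for the knockouts (Wilson 95% half-width at most 0.0160 percentage points). Knockout library 3 carries the label pancreas but held 132 CPM of these markers in sum, with Amy2a5 at 0, where wild type held 206747 to 302370 CPM. Of the 19 markers, 18 lay lower in every knockout than in any wild-type library, against 33.7% of all genes. By edgeR 0 of the 19 were called (1 at an unadjusted p under 0.05), while DESeq2 called 3 lower, limma-voom 5 and limma on the log2 values 3. Every fat, B cell and T cell marker chosen was called higher, against 28.0% of all genes. The marker lists were chosen with earlier results of these data known. Summed markers of fat (9 genes) ranged from 932 to 2062 CPM in wild type and from 11367 to 15065 CPM in knockout. For B cells (8 genes) the ranges were 112 to 348 CPM in wild type and 1217 to 1829 CPM in knockout, and for T cells (8 genes) 39.3 to 112 CPM and 299.5 to 766 CPM. The 10 proliferation genes summed to between 996 and 1132 CPM in wild type and between 435 and 538 CPM in knockout. Of these, 10 of 10 were called lower, against 25.0% of all genes. Islet markers (8 genes) summed to between 1418 and 3370 CPM in wild type and between 3.14 and 601 CPM in knockout. Of these, 2 of 8 were called lower, no more than the 25.0% of all genes. Xist and Y-linked counts showed males in wild-type libraries 1 and 2 and knockout library 1 and females in the other 3. The part of tissue makeup in the results below was not tested beyond the fit with an acinar covariate given there. In such bulk tissue, fewer cells of a type and less RNA per cell cannot be told apart.

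Most proteasome subunit transcripts were lower in the knockout. Of the 39 genes, 30 were lower and 0 higher in knockout at an adjusted p under 0.05 (edgeR quasi-likelihood test, Benjamini-Hochberg adjustment over all genes tested). Over all tested genes, 25.0% were called lower and 28.0% higher. At an unadjusted p under 0.05 the proteasome genes counted 32 lower and 0 higher, against 29.1% and 31.2% of all genes, and the DESeq2 Wald test and limma-voom also called 30 lower and 0 higher, the same genes. The background of those tests was 21.8% lower and 22.6% higher for DESeq2, and 27.9% and 28.5% for limma-voom. In 33 of the 39 every knockout library lay below every wild-type library, and in 1 (Psma8) every knockout library lay above. The corresponding shares of all genes were 33.7% and 34.4%. The median log2 fold change, knockout minus wild type, was -0.43 over the 39 genes and 0.02 over all genes tested. In the 30 genes called lower, the knockout mean was 46.0% to 83.3% of the wild-type mean.

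**Figure D1:**
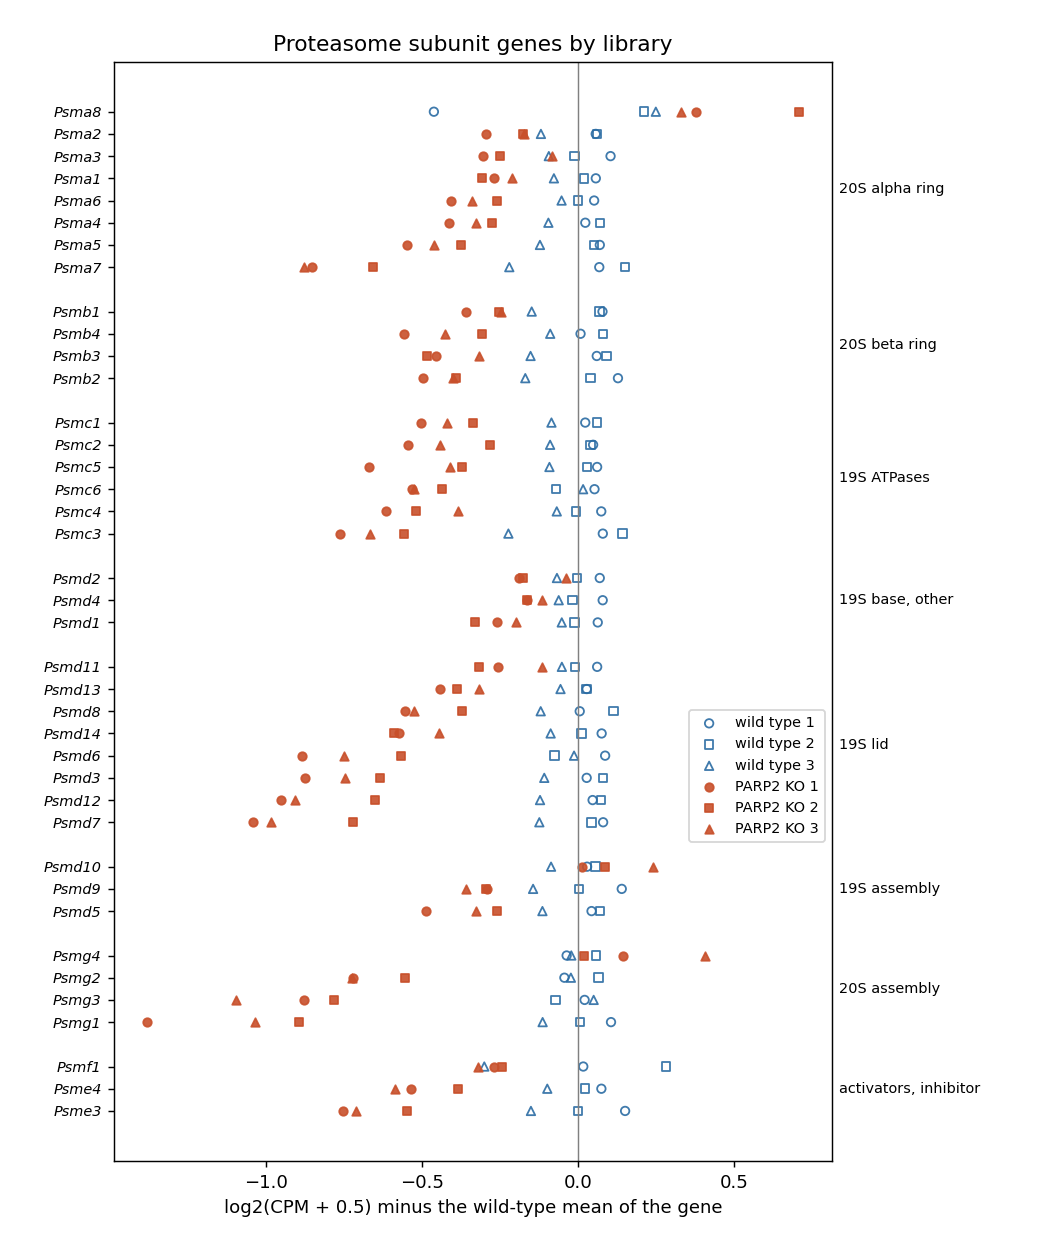
Level of each of the 39 genes in each library, as log2(CPM + 0.5) minus the wild-type mean of the gene (x axis), with open blue symbols for the 3 wild-type and filled red symbols for the 3 knockout libraries, grouped by role. The red symbols lie left of the blue ones in 33 genes, and Psma8, Psmd10 and Psmg4 are the 3 with a positive log2 fold change.

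These directions depend on how the libraries are scaled. The values above use TMM factors, which offset the counts taken by the most abundant genes, here the digestive enzymes. With library totals alone as scaling, the median of all genes tested moved by 0.40 on the log2 scale, to 0.42. Then 7 of the 39 proteasome genes were lower (Psmg1, Psmg3, Psmd12, Psmd3, Psmd6, Psmd7 and Psma7) and 2 higher (Psmd10 and Psmg4), against 12.2% and 42.3% of all genes, and 8 of the 30 genes called lower had a positive log2 fold change (Psmd1, Psmd5, Psmd9, Psmd13, Psma1, Psma4, Psma6 and Psmb1). This scaling moves all genes almost alike, so positions relative to other genes are kept by construction, and 36 of 39 lay below the median of all genes tested under either. As raw counts, the 39 genes together made up 0.300% (Wilson 95% interval 0.298 to 0.302), 0.297% (0.295 to 0.299) and 0.312% (0.310 to 0.314) of the wild-type libraries. In the knockouts the shares were 0.284% (0.283 to 0.286), 0.275% (0.273 to 0.277) and 0.308% (0.307 to 0.310), with library 3 inside the wild-type range.

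**Figure D2:**
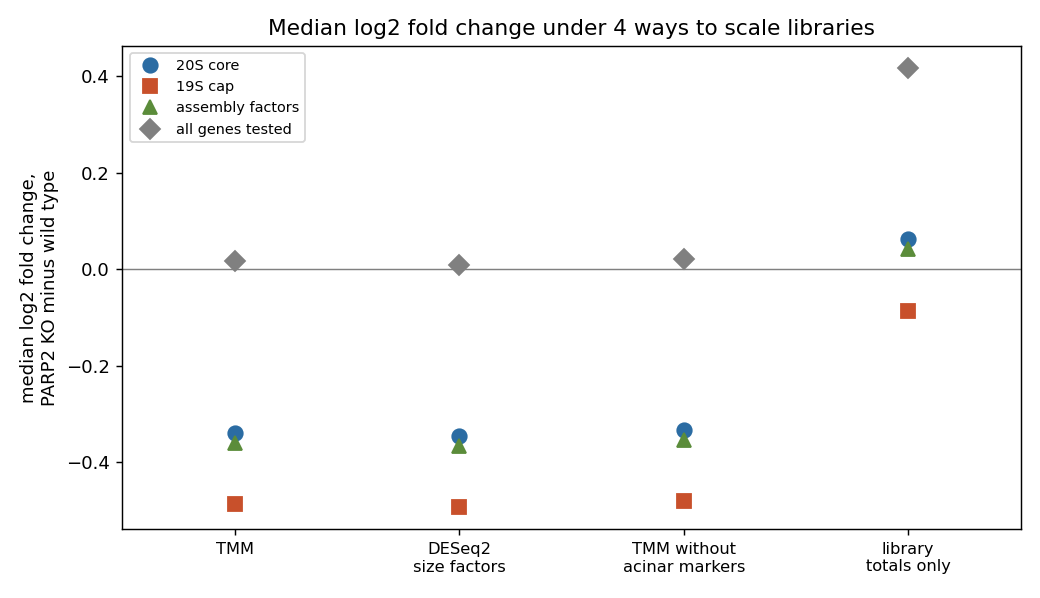
Median log2 fold change, knockout minus wild type (y axis), of the 20S core, the 19S cap, the assembly factors and all genes tested, under 4 ways to scale the libraries (x axis). With library totals only, all 4 medians move up together, the core from -0.34 to 0.062 and all genes from 0.02 to 0.42.

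The stretches upstream of 4 of the genes were read from RefSeq (GRCm38.p6) to show what can be searched in the DNA beside these transcripts. Psmg1 had the lowest log2 fold change of the 39 and Psmg4 is a 20S assembly factor with a positive one. Psmd12 and Psmc6 are genes called lower whose promoter holds the antioxidant response element, the letters TGACNNNGC, to which NRF1 (Nfe2l1) and NRF2 (Nfe2l2) bind. Each stretch is written 5′ to 3′ on the gene's own strand and ends before the first base of the gene. Capitals mark a match to the element on either strand, here GCTAAGTCA in Psmc6 and GCTGTGTCA in Psmd12, and the other stretches have none.
Psmg1 (chr16:95990961-95991210, minus strand): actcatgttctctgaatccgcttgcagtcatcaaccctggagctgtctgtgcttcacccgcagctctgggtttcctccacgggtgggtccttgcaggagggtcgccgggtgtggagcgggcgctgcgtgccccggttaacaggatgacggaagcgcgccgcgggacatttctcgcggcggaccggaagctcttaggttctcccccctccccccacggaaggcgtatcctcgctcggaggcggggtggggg
Psmg4 (chr13:34162714-34162963, plus strand): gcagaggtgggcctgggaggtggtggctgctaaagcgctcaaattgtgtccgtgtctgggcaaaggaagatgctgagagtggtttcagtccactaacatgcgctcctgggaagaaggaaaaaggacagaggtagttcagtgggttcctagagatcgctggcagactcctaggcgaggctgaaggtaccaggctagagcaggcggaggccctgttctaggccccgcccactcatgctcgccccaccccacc
Psmd12 (chr11:107479278-107479483, plus strand): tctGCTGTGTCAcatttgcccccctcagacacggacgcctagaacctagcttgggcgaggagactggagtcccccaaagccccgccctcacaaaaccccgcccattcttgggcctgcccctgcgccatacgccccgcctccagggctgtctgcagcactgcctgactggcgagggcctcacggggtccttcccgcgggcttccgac
Psmc6 (chr14:45329574-45329787, plus strand): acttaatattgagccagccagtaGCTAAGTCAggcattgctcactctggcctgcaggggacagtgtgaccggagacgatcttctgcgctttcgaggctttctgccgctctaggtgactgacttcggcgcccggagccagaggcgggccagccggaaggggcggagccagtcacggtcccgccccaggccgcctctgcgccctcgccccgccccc

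Promoter windows of 300 bases (250 before the start, 50 after) were found for 32 of the 39 genes in 34 windows. The element TGACNNNGC, on either strand, was in 4 of the 34 windows (11.8%), those of Psmc6, Psmd12, Psmd9 and Psme4, and in 12.4% of all 32851 windows. The CCAAT box bound by NF-Y was in 12 of 34 (35.3%) against 37.4% of all windows. The E-box CACGTG, to which Myc binds, was in 3 of 34 (8.82%) against 7.15%. All 3 patterns were searched on both strands, CACGTG reads the same on either, and matches of different patterns may overlap. A match is a run of letters, not a measured site.

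The largest differences were in the chaperones of the 20S core. PSMG1 pairs with PSMG2, and PSMG3 with PSMG4, and both pairs guide the assembly of the alpha ring. Psmg1 (ENSMUSG00000022913, chromosome 16, 95979933 to 95990960) stood at 32.4, 30.3 and 27.8 CPM (wild type) and 11.2, 15.97 and 14.4 CPM (knockout), a log2 fold change of -1.12 (SE 0.151, adjusted p = 0.00307). Psmg3 (ENSMUSG00000029551, chromosome 5, 139823592 to 139826885) had wild-type levels of 13.7, 12.8 and 13.98 CPM and knockout levels of 7.11, 7.64 and 6.04 CPM, a log2 fold change of -0.96 (SE 0.138, adjusted p = 0.00341). No knockout library of either gene came near the wild-type range. Psmg2 measured 28.4, 30.7 and 28.8 CPM in wild-type libraries and 17.6, 19.8 and 17.5 in knockouts, a log2 fold change of -0.68 (SE 0.0916, adjusted p = 0.00307), again without overlap. The fourth, Psmg4, stood at 6.57, 7.05 and 6.65 CPM (wild type) and 7.52, 6.85 and 9.12 CPM (knockout), a log2 fold change of 0.21 (SE 0.164, adjusted p = 0.301), and its groups overlapped. Whether Psmg4 differs from its partner Psmg3 in its response was not tested. Psmg1 and Psmg3 were also lower with library totals, with log2 fold changes of -0.72 and -0.57, whereas the call of Psmg2 ended there (adjusted p = 0.0727). Psmg4 was called higher with library totals (log2 fold change 0.62, adjusted p = 0.0466) and under no other alternative run. Psmg3 shares exon bases on its own strand with the gene Gm26938, so its count is uncertain.

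The chaperones of the 19S base moved less. PSMD5, PSMD9 and PSMD10 (gankyrin) each hold ATPase subunits until the base is complete. Psmd5 had wild-type levels of 55.6, 56.7 and 49.8 CPM and knockout levels of 38.3, 45.03 and 42.9 CPM, a log2 fold change of -0.36 (SE 0.0974, adjusted p = 0.0223). Psmd9 measured 25.9, 23.5 and 21.2 CPM in wild-type libraries and 19.1, 19.03 and 18.2 in knockouts, a log2 fold change of -0.33 (SE 0.103, adjusted p = 0.0373). Neither group pair overlapped, but both calls ended without wild-type library 1, wild-type library 2, knockout library 1 or knockout library 3, with adjusted p up to 0.0748 for Psmd5 and 0.109 for Psmd9. They also ended with library totals, where both log2 fold changes turned positive, with the acinar covariate (0.103 and 0.195) and with sex as a term (0.0559 and 0.0920), and that of Psmd9 with no count filter (0.0711). Exons of Psmd9 lie opposite those of another gene. Psmd10, also known for binding cell-cycle proteins, stood at 18.6, 18.95 and 17.1 CPM (wild type) and 18.4, 19.4 and 21.6 CPM (knockout), a log2 fold change of 0.12 (SE 0.103, adjusted p = 0.356). Knockout libraries 2 and 3 stood above wild type in Psmd10, and library 1 stood among them. With library totals it was called higher (log2 fold change 0.53, adjusted p = 0.0173).

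**Figure D3:**
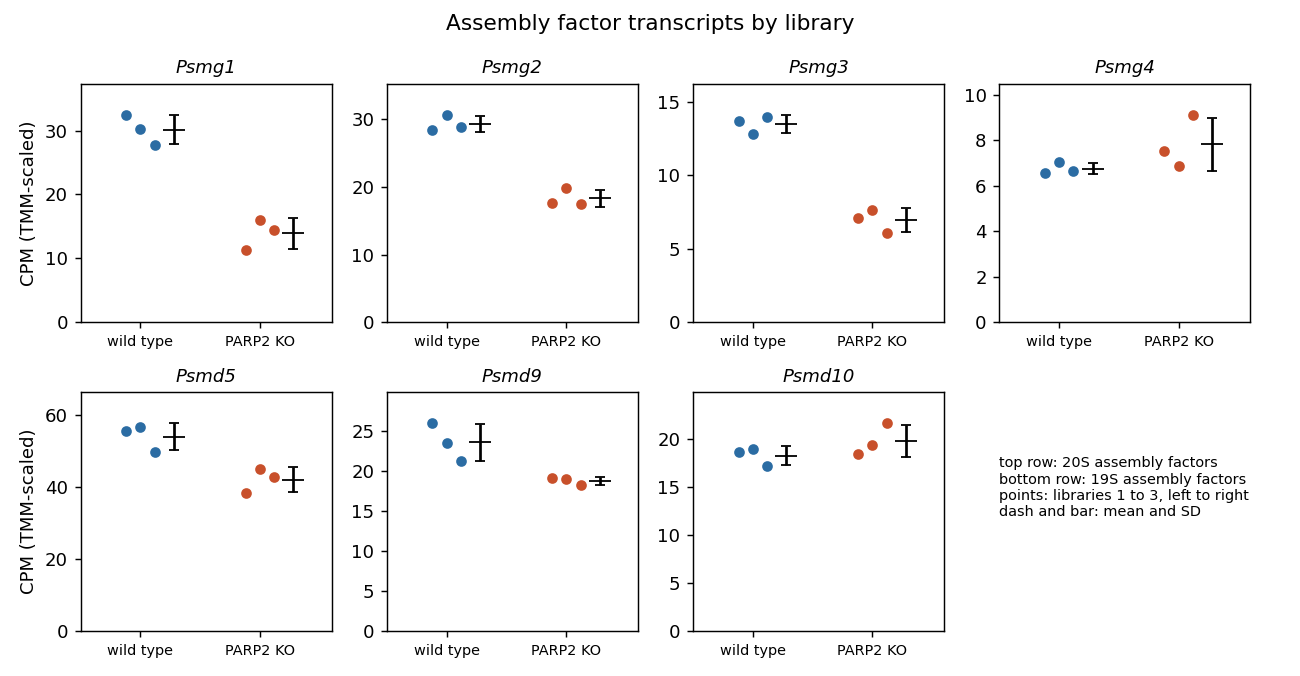
CPM (y axis) of the 7 assembly factors in each library, with the 3 points of a genotype in the order of libraries 1 to 3 and a dash with a bar for the mean and SD (n = 3). Psmg1, Psmg2 and Psmg3 are separated furthest between genotypes, while the points of Psmg4 and Psmd10 overlap.

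Within the 19S cap the lid had the lowest median log2 fold change, -0.64, with 7 of 8 genes called lower against 25.0% of all genes. With library totals 4 of the 8 were called lower, against 12.2% of all genes. Psmd7 (ENSMUSG00000039067, chromosome 8, 107580381 to 107588464) encodes the structural partner of the lid deubiquitinase PSMD14. It had wild-type levels of 137, 133 and 119 CPM and knockout levels of 62.7, 78.4 and 65.2 CPM, a log2 fold change of -0.92 (SE 0.114, adjusted p = 0.00264). Psmd12 (ENSMUSG00000020720, chromosome 11, 107479484 to 107504362) and Psmd3 (ENSMUSG00000017221, chromosome 11, 98682554 to 98695979) encode scaffold subunits that carry the lid. Psmd12 measured 114, 116 and 101 CPM in wild-type libraries and 56.9, 70.2 and 58.6 in knockouts, a log2 fold change of -0.84 (SE 0.111, adjusted p = 0.00298). Psmd3 stood at 145, 149.9 and 132 CPM (wild type) and 77.1, 91.1 and 84.3 CPM (knockout), a log2 fold change of -0.75 (SE 0.0959, adjusted p = 0.00273). In these 3 genes, knockout library 2 was the highest of its genotype and still lay below every wild-type library. The scaffold gene Psmd6 (log2 fold change -0.73), the deubiquitinase gene Psmd14 (-0.54), Psmd8 (-0.49) and Psmd13 (-0.38) were lower as well. Psmd11, another scaffold subunit, missed the threshold with a log2 fold change of -0.23 (SE 0.0846, adjusted p = 0.0594), although its groups did not overlap.

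All 6 ATPase genes, Psmc1 to Psmc6, were called lower, against 25.0% of all genes, with log2 fold changes between -0.67 and -0.42. None passed with library totals, where the log2 fold changes lay between -0.26 and -0.020. The products of these genes form the ring that unfolds the substrate, in equal numbers of copies. Psmc3 (ENSMUSG00000002102, chromosome 2, 91054009 to 91066369) had wild-type levels of 171, 179 and 139 CPM and knockout levels of 95.3, 109.9 and 102 CPM, a log2 fold change of -0.67 (SE 0.121, adjusted p = 0.00612). Psmc6 (ENSMUSG00000021832, chromosome 14, 45329788 to 45349705) measured 128, 118 and 125 CPM in wild-type libraries and 85.1, 91.01 and 85.6 in knockouts, a log2 fold change of -0.50 (SE 0.0745, adjusted p = 0.00368). Psmc4 stood at 98.5, 93.01 and 89.1 CPM (wild type) and 60.8, 65.1 and 71.5 CPM (knockout), a log2 fold change of -0.51 (SE 0.0894, adjusted p = 0.00568). The genotypes did not overlap in any of these 3 genes, and the span of these 6 fold changes was narrower than that of the lid. Psmc6 and Psmd6 share chromosome 14 with Parp2, at 5.46 and 36.7 Mb from it.

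The 3 subunits of the base chosen here that are not ATPases had a median log2 fold change of -0.15. Of the 3, 1 was called lower, against 25.0% of all genes. With library totals all 3 had positive log2 fold changes, 0.14 for Psmd1, 0.27 for Psmd2 and 0.25 for Psmd4, and none passed. Psmd1 and Psmd2 are the large scaffolds that dock shuttle factors and ubiquitin, and Psmd4 is a ubiquitin receptor. Psmd1 had wild-type levels of 132, 125 and 121 CPM and knockout levels of 105, 100.03 and 109.7 CPM, a log2 fold change of -0.26 (SE 0.0762, adjusted p = 0.0278). The call ended without wild-type library 1, wild-type library 2 or knockout library 1, with adjusted p up to 0.0864, and with the acinar covariate, sex as a term or no count filter (0.0655, 0.0790 and 0.0601). Exons of Psmd1 overlap those of Gm21972 on the same strand. Psmd2 measured 153, 146 and 139 CPM in wild-type libraries and 128, 129 and 142 in knockouts, a log2 fold change of -0.13 (SE 0.0837, adjusted p = 0.214), and its groups overlapped. Psmd4 stood at 96.1, 89.8 and 87.1 CPM (wild type) and 81.1, 81.1 and 83.9 CPM (knockout), a log2 fold change of -0.15 (SE 0.0728, adjusted p = 0.125), with all knockout libraries just below wild type. Whether these 3 genes differ from the ATPase genes in response was not tested.

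In the 20S core, 9 of 12 genes were called lower, against 25.0% of all genes. With library totals 1 of them, Psma7, was called lower, against 12.2% of all genes, and Psma1, Psma4, Psma6 and Psmb1 turned positive. Psma7 (ENSMUSG00000027566, chromosome 2, 180036374 to 180042433), the alpha subunit at the position that PSMA8 takes in testis, had wild-type levels of 173, 183 and 141 CPM and knockout levels of 91.03, 104 and 89.5 CPM, a log2 fold change of -0.80 (SE 0.125, adjusted p = 0.00409). Of these 12 core genes it was the only one with a log2 fold change below the median of the cap. The next in the alpha ring, Psma5, measured 23.2, 22.9 and 20.2 CPM in wild-type libraries and 14.9, 16.9 and 15.9 in knockouts, a log2 fold change of -0.47 (SE 0.103, adjusted p = 0.0109), a call that ended with the acinar covariate (adjusted p = 0.0699) and with library totals (0.607). Psma6 stood at 138, 133 and 128 CPM (wild type) and 100.01, 111 and 105 CPM (knockout), a log2 fold change of -0.34 (SE 0.0772, adjusted p = 0.0130), a call that ended without knockout library 1 (adjusted p = 0.0502) and with the acinar covariate (0.0840). Psma4 (-0.34) and Psma1 (-0.26) were lower too, in log2 fold change, and both calls ended without knockout library 1 or wild-type library 2, that of Psma1 also without wild-type library 1. Psma2 (-0.22, adjusted p = 0.0714) and Psma3 (-0.22, adjusted p = 0.134) did not pass.

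Psma8 is the alpha subunit made in the testis in place of Psma7, and its transcript was near absent here. It had wild-type levels of 0.352, 0.860 and 0.896 CPM and knockout levels of 1.03, 1.42 and 0.977 CPM, from 9 to 45 counts per library. All knockout libraries lay above wild type, but with a log2 fold change of 0.69 (SE 0.402, adjusted p = 0.183) it did not pass, and its SE was the largest of the 39. Per kb of exon, the wild-type mean was 0.42 CPM for Psma8 and 141 CPM for Psma7.

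All 4 structural beta genes were called lower, against 25.0% of all genes, with log2 fold changes between -0.44 and -0.29. None passed with library totals, where Psmb1 turned to 0.12. The products of these genes carry no active site and frame the catalytic subunits of the ring. Psmb2 measured 92.6, 87.1 and 75.3 CPM in wild-type libraries and 59.9, 64.5 and 64.01 in knockouts, a log2 fold change of -0.44 (SE 0.0983, adjusted p = 0.0123). Psmb4 stood at 125, 131 and 117 CPM (wild type) and 84.2, 100.2 and 92.3 CPM (knockout), a log2 fold change of -0.43 (SE 0.0945, adjusted p = 0.0113). Psmb3 had wild-type levels of 24.3, 24.8 and 20.9 CPM and knockout levels of 16.8, 16.5 and 18.6 CPM, a log2 fold change of -0.43 (SE 0.108, adjusted p = 0.0175). No knockout library reached the wild-type range in these genes. The calls of Psmb3 and of Psmb1 (log2 fold change -0.29, adjusted p = 0.0389) ended without knockout library 1, wild-type library 1 or wild-type library 2, and that of Psmb1 also without knockout library 3, with adjusted p up to 0.0616 and 0.12. Both ended with sex as a term, and those of Psmb1, Psmb2 and Psmb4 with the acinar covariate.

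Among the activators and inhibitors, Psme3 encodes a nuclear ring that opens the core for proteins without ubiquitin. It measured 196, 176 and 159 CPM in wild-type libraries and 104, 120.3 and 107 in knockouts, a log2 fold change of -0.68 (SE 0.1096, adjusted p = 0.00460). Psme4 encodes a large activator of the core known from DNA repair and spermatogenesis, and stood at 187, 181 and 166 CPM (wild type) and 123, 136 and 118 CPM (knockout), a log2 fold change of -0.50 (SE 0.0931, adjusted p = 0.00657). Both were lower without overlap, and neither passed with library totals (adjusted p = 0.0537 and 0.392). The call of Psme4 also ended with the acinar covariate (adjusted p = 0.0516). Psmf1, which encodes an inhibitor that binds the core, had wild-type levels of 44.4, 53.5 and 35.5 CPM and knockout levels of 36.3, 36.98 and 35.1 CPM, a log2 fold change of -0.30 (SE 0.152, adjusted p = 0.137). Its lowest wild-type library lay within the knockout range, and without that library, wild type 3, it was called lower (log2 fold change -0.45, adjusted p = 0.029).

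**Figure D4:**
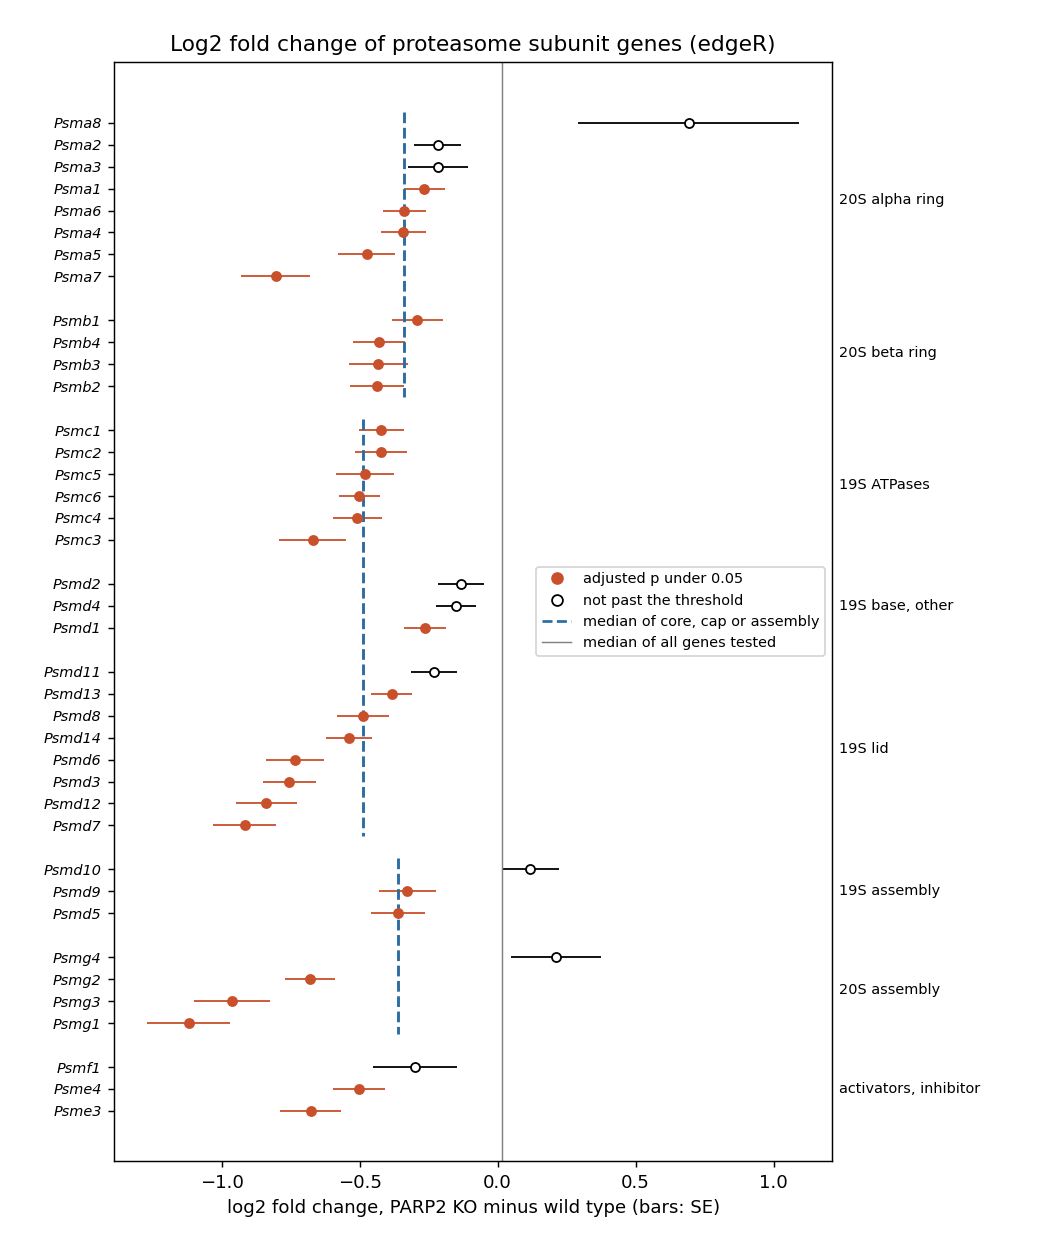
Log2 fold change of the 39 genes, knockout minus wild type (x axis, bars are SE), with filled points for adjusted p under 0.05, dashed lines for the median of the core, the cap and the assembly factors, and a grey line for the median of all genes tested. The lid and 20S assembly genes reach furthest left, to -0.92 and -1.12, and 9 open points did not pass.

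Set side by side, the cap genes chosen here were lower than the core genes chosen here by a small margin. These core genes leave out the catalytic Psmb5, Psmb6 and Psmb7. Their log2 fold changes of -2.12, -0.61 and -0.54 lie below the cap median given next. The cap genes leave out Adrm1 and Sem1. How the margin would stand with these genes included was not tested. Called lower were 9 of 12 core genes, 14 of 17 cap genes and 5 of 7 assembly factors, against 25.0% of all genes. The median log2 fold change was -0.34 in the core, -0.49 in the cap and -0.36 in the assembly factors. Within the cap the median was -0.64 for the lid, -0.49 for the ATPases and -0.15 for the other base subunits, the last above the core median. Among the assembly factors the median was -0.82 for the 4 chaperones of the core and -0.33 for the 3 of the base. Of the cap genes 13 of 17 lay below the core median, and of the assembly factors 4 of 7.

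Within each knockout library the cap also had a lower median than the core. The core median of log2(CPM + 0.5), taken against each gene's mean in wild type, was -0.41, -0.29 and -0.32 in knockout libraries 1 to 3 and 0.06, 0.07 and -0.11 in wild type. For the cap these medians were -0.55, -0.39 and -0.44 in knockout and 0.06, 0.03 and -0.08 in wild type. For the assembly factors they were -0.49, -0.29 and -0.36 in knockout and 0.03, 0.06 and -0.09 in wild type. Cap minus core was -0.14, -0.10 and -0.12 in knockout and 0.0027, -0.038 and 0.022 in wild type. The wild-type values are centred by construction, since each gene is set against its wild-type mean. Their spread is therefore no yardstick for the knockout margin. Assembly minus core was -0.078, -0.0041 and -0.035 in knockout, and -0.029, -0.0088 and 0.021 in wild type. These overlap, with knockout library 2 above wild-type libraries 1 and 2. The median fold change of the cap minus that of the core was -0.15 on the log2 scale, which scaling cannot move much by construction. This difference was not tested, and it was taken over the genes chosen here alone.

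**Figure D5:**
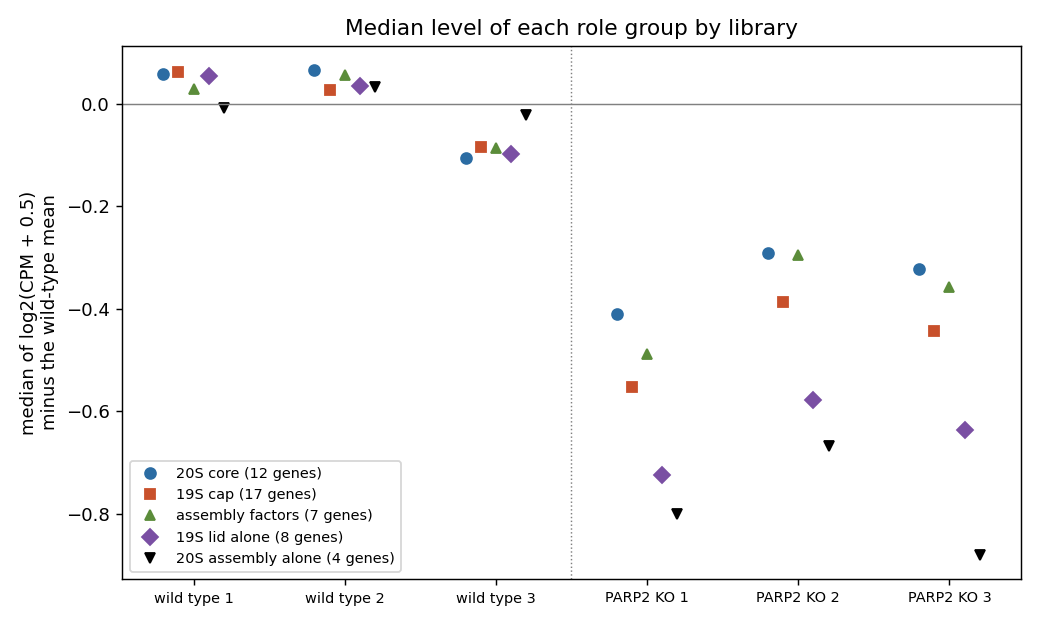
Median over the genes of each role of log2(CPM + 0.5) minus the wild-type mean of the gene (y axis) in each of the 6 libraries (x axis), with the lid and the 20S assembly factors also drawn alone and symbols set side by side within a library. In the 3 knockout libraries the cap medians (-0.55, -0.39 and -0.44) lie below the core medians (-0.41, -0.29 and -0.32), with the lid and the 20S assembly factors lower still.

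Levels also varied within a genotype. Knockout library 2, with the highest acinar share of its genotype, had the highest knockout median over the 39 genes, at -0.37. Among wild-type libraries, library 3, with the lowest acinar share, had the lowest median, at -0.09 against 0.06 and 0.04. Over all genes tested the medians of the 6 libraries lay between -0.018 and 0.039. A link between these medians and the acinar share was not tested. Knockout library 3, nearly without acinar transcripts, was not the lowest, with a median over the 39 genes of -0.40 against -0.50 in library 1. With the mean log2 CPM of the acinar markers as a covariate, 16 of 39 genes were called lower, against 12.9% of all genes: 10 of the cap, 3 assembly factors, 2 of the core and Psme3. The calls that ended there were those of Psma1, Psma4, Psma5, Psma6, Psmb1, Psmb2, Psmb4, Psmc1, Psmc2, Psmd1, Psmd5, Psmd8, Psmd9 and Psme4. Medians hardly moved in that fit, at -0.33 in the core, -0.47 in the cap and -0.36 in the assembly factors. The acinar markers themselves had medians of 0.03, 0.09 and -0.14 in wild type and -3.1, -1.2 and -10.7 in knockout. The covariate thus varied mainly among the knockouts, and that fit cannot separate the acinar share from genotype. With sex as a term, an alternative chosen after seeing the data, 24 were called lower against 18.7% of all genes, 6 of the core, 13 of the cap and 3 assembly factors among them, and the calls of Psma1, Psmb1, Psmb3, Psmd1, Psmd5 and Psmd9 ended. Genotype and tissue makeup cannot be told apart in this design.

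Leaving out any 1 library kept 22 of the 30 calls, among them all 6 ATPase genes, the 7 lid genes and the 3 chaperones of the core. The number called lower fell to 22 without knockout library 1, 23 without wild-type library 2 and 24 without wild-type library 1, against 14.1%, 16.5% and 17.6% of all genes. In the core it was 4 without knockout library 1 and 5 without wild-type library 2. At an adjusted p under 0.01, 17 of the 39 were lower against 11.9% of all genes. The 7 genes lower under library totals kept their calls under every alternative run.

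Levels of different genes were compared only per length, as CPM per kb of exon in wild type. The highest of the 39 were Psma7 at 141, Psma6 at 116 and Psmb4 at 105, and the lowest apart from Psma8 was Psma3 at 6.89. Of the exon sequence, 15.4% in Psma3, 49.1% in Psma5 and 17.8% in Psmb3 recurs in other genes as runs of 50 bases, where reads cannot be assigned by sequence alone. Exons of Psma4, Psma5, Psmc3, Psmd1, Psmd3, Psmd9 and Psmd13 lie opposite exons of another gene. A recurring share of 10% or more was also found in Psma4, Psmc1 and Psmd2, so the levels of these 6 genes are uncertain.

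The other genes of the pathway, 36 tested of 41 chosen, gave 18 lower and 6 higher under TMM, where the shares of all genes were 25.0% and 28.0%. Under library totals they gave 7 lower and 11 higher, where the shares of all genes were 12.2% and 42.3%. The 3 catalytic beta genes of the standard proteasome were lower. Psmb5, the chymotrypsin-like site, measured 22.03, 22.95 and 19.98 CPM in wild-type libraries and 4.52, 5.08 and 5.35 in knockouts, a log2 fold change of -2.12 (SE 0.124, adjusted p = 0.00201). This exceeds every difference among the 39, but 47.4% of its exon sequence recurs elsewhere and it lies 3.79 Mb from Parp2. Psmb6 stood at 113, 117 and 101 CPM (wild type) and 67.5, 76.4 and 72.98 CPM (knockout), a log2 fold change of -0.61 (SE 0.0922, adjusted p = 0.00380). Psmb7 had wild-type levels of 103, 107 and 89.1 CPM and knockout levels of 61.99, 71.9 and 72.6 CPM, a log2 fold change of -0.54 (SE 0.107, adjusted p = 0.00841). The calls of Psmb6 and Psmb7 ended under library totals.

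The immunoproteasome genes, induced by interferon and high in lymphocytes, went the other way except for 1. Psmb8 measured 67.9, 59.9 and 59.4 CPM in wild-type libraries and 171, 152 and 195 in knockouts, a log2 fold change of 1.47 (SE 0.119, adjusted p = 0.00201). Psmb9 stood at 29.9, 27.8 and 26.7 CPM (wild type) and 85.5, 77.8 and 94.2 CPM (knockout), a log2 fold change of 1.61 (SE 0.101, adjusted p = 0.00201). The genes of the interferon-induced activator ring, Psme1 and Psme2, were higher as well and lie within 5 Mb of Parp2. Psme1 had wild-type levels of 74.6, 82.9 and 70.8 CPM and knockout levels of 141, 130.2 and 141 CPM, a log2 fold change of 0.85 (SE 0.0894, adjusted p = 0.00213). Psme2 measured 23.2, 19.99 and 21.46 CPM in wild-type libraries and 46.02, 40.7 and 50.6 in knockouts, a log2 fold change of 1.09 (SE 0.113, adjusted p = 0.00213). Psmb10 was lower, with wild-type levels of 150.4, 180.05 and 155 CPM and knockout levels of 71.8, 102 and 71.96 CPM, a log2 fold change of -0.98 (SE 0.167, adjusted p = 0.00520). T and B cell markers rose in the same libraries, and their part in these 4 higher genes was not tested.

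Among factors that control or serve the proteasome, Nfe2l1 encodes NRF1, the factor that raises subunit genes when proteasome activity is short. Its transcript was higher, with wild-type levels of 173, 180.3 and 196 CPM and knockout levels of 255, 247 and 281 CPM, a log2 fold change of 0.51 (SE 0.0958, adjusted p = 0.00674), a call that ended with the acinar covariate (adjusted p = 0.0523). Nfe2l2, the gene of NRF2, was lower, with a log2 fold change of -0.54 (adjusted p = 0.0169), a call that ended with library totals, the acinar covariate, and without knockout library 1 or wild-type library 2. NRF1 is controlled mainly as a protein, which was not measured. Ngly1, whose product frees NRF1 of its sugars, was higher by 0.31 on the log2 scale (adjusted p = 0.0231), a call that ended with the acinar covariate and without wild-type library 2 or 3. Of the deubiquitinases that sit on the cap, Uchl5 stood at 107, 102 and 102 CPM (wild type) and 26.3, 43.5 and 23.6 CPM (knockout), a log2 fold change of -1.74 (SE 0.238, adjusted p = 0.00328). Usp14 had wild-type levels of 101, 94.99 and 93.97 CPM and knockout levels of 64.3, 69.6 and 61.01 CPM, a log2 fold change of -0.57 (SE 0.0814, adjusted p = 0.00339), and this call ended under library totals. Ubqln4, a shuttle that carries tagged proteins to the cap, measured 96.04, 89.3 and 92.7 CPM in wild-type libraries and 50.4, 64.03 and 53.3 in knockouts, a log2 fold change of -0.73 (SE 0.108, adjusted p = 0.00367). Pomp, the chaperone of the beta ring, had a log2 fold change of 0.04 (SE 0.0924, adjusted p = 0.699) and, with Psmg4 and Psmd10, was an assembly factor not called lower, and with library totals it was called higher (log2 fold change 0.45, adjusted p = 0.0262).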

How the data were processed

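The authors deposited 2 gene tables: whole-number read counts that were not normalised, and log2 values. The deposited log2 values equal log2 of the count divided by the DESeq2 size factor, plus 1, within 5.2e-14, so both hold the same measurement. The tools listed in the submitters' processing notes are STAR 2.5.3a, FastQC 0.11.5 and DESeq2 1.28.1, with the build GRCm38 (mm10). How reads were assigned to genes (program, strand setting, annotation release) is not given in the sources used here. Of the 39 genes, 2 share exon bases with a gene on the same strand and 7 with one on the opposite strand, so their counts are less certain.

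Counts were tested with edgeR 4.0.16 in R 4.3.3 (filterByExpr, TMM, robust quasi-likelihood, genotype alone, all 6 libraries), and p-values were adjusted over the 17652 genes tested. Each SE was computed as the absolute log2 fold change over the root of its F statistic. CPM use TMM-scaled library sizes. Replicates of 1 genotype differed by more than counting noise (chi-square per degree of freedom 29.1 to 461). Wilson 95% intervals of shares of reads cover counting error only. Exon lengths and overlaps came from GENCODE M21 on GRCm38.

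The alternatives tried were DESeq2 size factors, library totals, TMM without acinar markers, other filters, DESeq2 1.42.0, limma 3.58.1 (voom, and on the log2 values), a threshold of 0.01, an acinar covariate, leaving out each library and, added later, sex. The procedure was also run on simulated counts in which few genes changed, in equal numbers up and down, with no change in tissue makeup. Such a run cannot show how well the calls hold under the shift in marker transcripts seen here. The genes and lists were chosen with earlier results of these data known. Values in every library are given for the 3 genes of smallest p in each role, those with a positive log2 fold change, the extremes, the 4 other pathway genes of smallest p in each direction, Nfe2l1, Psmb5 to Psmb10 and Parp2. Other genes were named after their values were seen.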

Additional observations from a re-analysis of the deposited data

How the results depend on the processing

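The number of proteasome genes called lower was 30 in the edgeR fit. It was within 1.5 times of that with DESeq2 size factors, TMM without acinar markers, both other count filters, DESeq2, limma-voom, limma on the log2 values, sex as a term and each library left out. It was 16 with the acinar covariate, 7 with library totals and 17 at an adjusted p under 0.01, where the background shares were 12.9%, 12.2% and 11.9%. The number higher was 2 with library totals. In the core, 2 were lower with the acinar covariate, 1 with library totals and 1 at 0.01, and between 4 and 10 without 1 library. In the cap, 4 were lower with library totals. Of the assembly factors, 3 were lower with the acinar covariate, 2 with library totals, 3 at 0.01, 3 with sex as a term, and between 3 and 5 without 1 library. With library totals, the median log2 fold change was 0.062 in the core, -0.086 in the cap and 0.042 in the assembly factors, and it turned positive in 8 of the 30 genes called lower: Psmd5 (0.042), Psmd9 (0.080), Psmd1 (0.14), Psma6 (0.063), Psmd13, Psma1, Psma4 and Psmb1. Of the genes not called, Psmd2, Psmd4, Psmd11, Psma2, Psma3 and Psmf1 turned positive too. These shifts follow from the all-gene median, which that scaling moves by 0.40. The cause of the other changes was not tested. No paired analysis was possible because the labels give the genotypes no shared replicate numbers. Psma8 had the fewest counts per library of the 39 genes, 9 to 45, so depth limits its value most. Psmg4 (164 to 355) and Psmg3 (235 to 406) came next.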
